A study of Mus musculus with 6 samples.

Results

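Genes of lymphatic and venous endothelial fate were followed in MS-1, a mouse endothelial cell line derived from islets of the pancreas, without and with TGF-β. The 6 genes are Lyve1, Prox1, Foxc1, Foxc2, Nr2f2 and Pdpn, taken by name as 6 of the 29955 rows of the deposited expression table. Cells had received 1 of 3 locked nucleic acid inhibitors (a negative control, a miR-31 inhibitor or a miR-27 inhibitor) and were then kept for 72 h without TGF-β or with TGF-β2 at 1 ng/ml. This gave 6 libraries of ribosome-depleted total RNA, 1 per condition, and no condition without a transfected inhibitor. The labels do not say whether the cultures were separate, so the spread behind each p-value may be technical.

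Lymphatic endothelium arises from veins in the embryo. The orphan nuclear receptor COUP-TFII, encoded by Nr2f2, maintains venous identity, and together with SOX18 it switches on Prox1, the homeobox factor that commits and holds cells to the lymphatic fate. Foxc2 and its close relative Foxc1 encode forkhead factors, and Foxc2 is needed for lymphatic valves. Lyve1, a hyaluronan receptor, and Pdpn, the mucin-type glycoprotein podoplanin, are surface proteins used to recognise lymphatic vessels. TGF-β signalling is known to restrain lymphatic growth and marker expression, and miR-31 has been reported to repress PROX1 and FOXC2 in human lymphatic endothelial cells.

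The inhibitors' own sequences are not given here. Mature microRNAs were taken by name for miR-31 and miR-27 and are printed with the seed, bases 2 to 8, in capitals. They come from RefSeq on GRCm38.p6, and miR-27a and miR-27b share one seed.
mmu-miR-31-5p: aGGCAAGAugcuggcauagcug
mmu-miR-27a-3p: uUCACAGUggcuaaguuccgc
mmu-miR-27b-3p: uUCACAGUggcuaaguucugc

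A 7-base match to the miR-31 seed lay in the annotated 3′ UTR of Foxc2, at 2 places, and of Foxc1, at 1. The 3′ UTRs are those of GENCODE vM21 on GRCm38, the longest per gene, read along the gene's own strand, with the match in capitals.
Foxc2, first match, chr8:121118494-121118515: ccaggctattttgtTCTTGCCc
Foxc2, second match, chr8:121118551-121118572: tggataaggtttcgTCTTGCCc
Foxc1, chr13:31809209-31809230: ttcctgctcattcgTCTTGCCc

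For miR-27, Prox1 held 2 matches in a 3′ UTR of 5185 bases and Nr2f2 held 1 in 2713 bases. All 3 lie in genes on the minus strand.
Nr2f2, chr7:70354514-70354535: gaagaatttaatggACTGTGAa
Prox1, first match, chr1:190122899-190122920: ggagtgagccagtgACTGTGAc
Prox1, second match, chr1:190121601-190121622: tgacttcaagctaaACTGTGAa

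Such matches are common. The letters TCTTGCC occurred in 13.3% and ACTGTGA in 17.9% of the 9545 tested genes with an annotated 3′ UTR. Lyve1 and Pdpn held no 7-base match to either seed. A match describes the sequence and is not evidence of a site in use.

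Levels were read as FPKM, fragments per kilobase of transcript scaled to the mapped fragments of the library, which allows genes to be compared per length. Between 11680 and 11791 genes per library stood at 1 FPKM or more. Steps between the lowest values, where single fragments can be told apart, put 1 FPKM at 81.1 to 99.8 fragments per kilobase, an approximate scale of depth. The endothelial markers Pecam1, Cdh5, Kdr, Tie1, Erg, Emcn and Eng were present in every library, while Cldn5 was at or under 0.0359 FPKM. With TGF-β, Emcn and Eng rose, Kdr and Tie1 fell, and Pecam1, Cdh5 and Erg did not pass. None of the 8 macrophage markers in the table reached the filter used for testing, a mean of 1 FPKM. Their summed level was 0.370 to 0.473 FPKM without and 0.890 to 1.19 FPKM with TGF-β, and Ptprc, which marks leukocytes, was at or under 0.0257 FPKM. Csf1r and Cd14 were higher with TGF-β in each of the 3 transfections. Csf1r was at 0.0390 to 0.0840 FPKM without and 0.312 to 0.342 FPKM with TGF-β. Cd14 was at 0.266 to 0.349 FPKM without and 0.560 to 0.832 FPKM with it. Emr1, Mrc1, Itgam, Cd163 and Timd4 were at or under 0.01634 FPKM. These markers bear on Lyve1, which macrophages can also express. Of 7 fibroblast markers, Pdgfra and Pdgfrb were tested and both rose, and the summed level went from 2.49 to 3.32 to 18.4 to 23.1 FPKM with TGF-β, and Pdgfrb passed the filter only through the treated libraries. Of the 5 under the filter, Col1a1 and Col1a2 were higher with TGF-β in each of the 3 transfections. Col1a1 was at 0.00620 at most without and at 0.222 to 0.444 FPKM with TGF-β. Dcn was at or under 0.0436 FPKM and nearly level in the miR-31 pair, at 0.0131 and then 0.0136 FPKM. Lum and Thy1 were at or under 0.0425 FPKM. Of 8 epithelial and mesothelial markers, Krt18 fell by 1.72 and carried most of the summed level, which went from 49.0 to 61.8 to 21.7 to 24.0 FPKM. Msln, the other one tested, did not pass (0.04 ± 0.04, limma adjusted p = 0.511). Under the filter, Krt19 (0.170 to 0.475 without, 0.718 to 1.37 FPKM with TGF-β) and Upk3b were higher in each of the 3 transfections. Krt8 and Cdh1 differed in direction between transfections, Wt1 was at or under 0.00361 FPKM, and Epcam was listed at 0. The markers that changed did so with the same contrast as the genes below, and their part in those results was not tested. In bulk RNA, fewer cells expressing a gene and less RNA per cell cannot be told apart.

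Without TGF-β, the 6 genes spanned several orders of magnitude. Lyve1 stood highest, at 39.5 to 44.0 FPKM, above 92.3% of the rows of the table in the negative-control library. Nr2f2 (4.33 to 5.82 FPKM) and Pdpn (3.92 to 5.17 FPKM) overlapped in their ranges. Foxc2 (0.123 to 0.185 FPKM) and Foxc1 (0.0712 to 0.143 FPKM) overlapped as well, and Prox1 was listed at 0. With TGF-β, the order from Lyve1 through Nr2f2, Pdpn, Foxc2 and Foxc1 to Prox1 held with no overlap between neighbours.

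**Figure D1:**
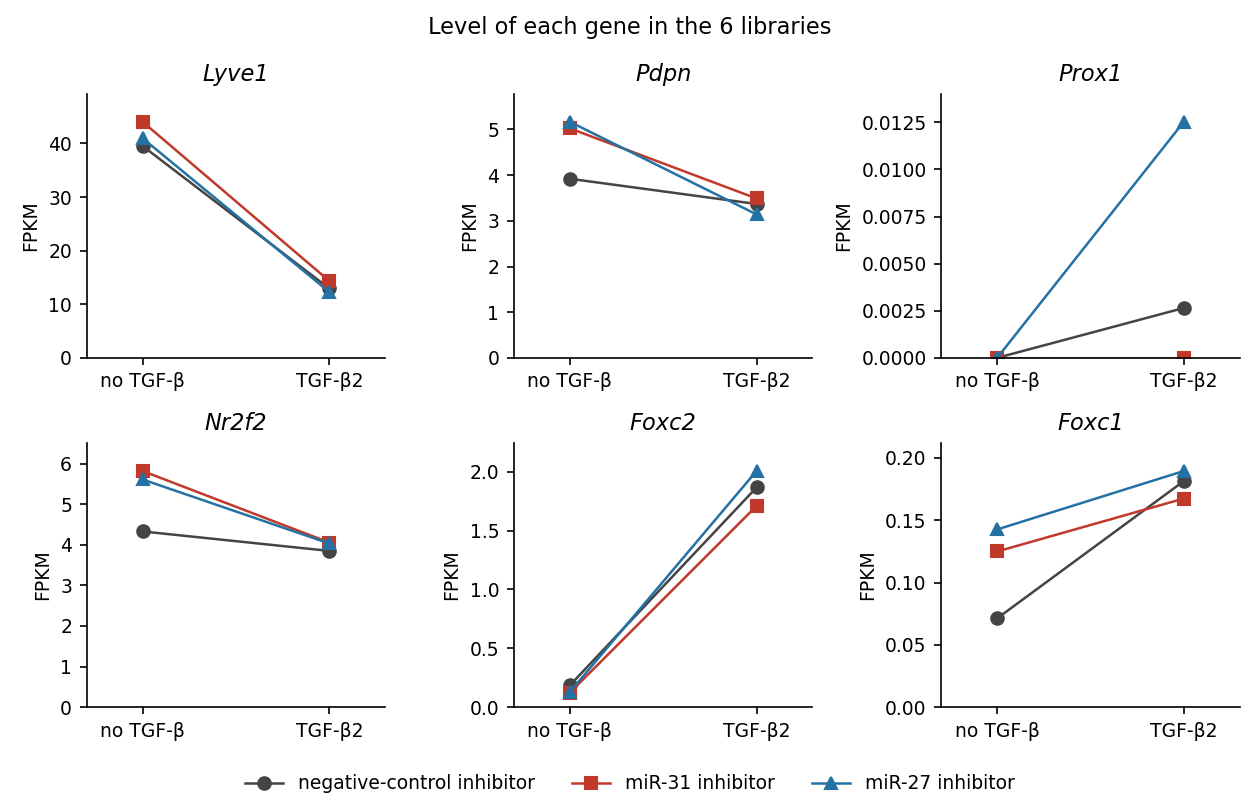
FPKM of the 6 genes (y axes from 0, each on its own scale) without and with TGF-β2. Each symbol is 1 library and each line joins the libraries of 1 inhibitor. Lyve1 drops from 39.5 to 44.0 to 12.3 to 14.3 FPKM and Foxc2 rises from 0.123 to 0.185 to 1.71 to 2.01 FPKM.

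TGF-β moved the 4 genes that could be tested, Lyve1, Pdpn and Nr2f2 downward and Foxc2 upward. The test was limma on log2(FPKM + 1) over 11816 genes, with an additive model of inhibitor and TGF-β and Benjamini-Hochberg adjustment over all of them. In that fit 22.7% of genes passed as higher and 27.5% as lower with TGF-β, so passing alone does not set these genes apart. A difference of at least 1 in the same direction in all 3 transfections was rarer, at 1.95% of tested genes higher and 1.62% lower. Foxc2 and Lyve1 reached that size, and Nr2f2 and Pdpn did not. Foxc2 was among the tested genes only through its treated libraries, so the share of tested genes gives no separate support for its rise.

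Lyve1, the hyaluronan receptor, was at 39.5 (negative control), 44.0 (miR-31) and 41.0 FPKM (miR-27) in cells kept without TGF-β. With TGF-β it was at 12.9, 14.3 and 12.3 FPKM in the same order. Every library with TGF-β lay far below every library without it, leaving 32.8%, 32.6% and 30.0% of the level. Lyve1 fell by 1.58 ± 0.05 on the log2 scale (SE of the fit, limma adjusted p = 5.013e-05, 95% interval -1.70 to -1.47). Under 12 alternative settings the effect ranged from -1.65 to -1.54, and it passed the test in all 12.

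Pdpn, which marks lymphatic vessels and binds the platelet receptor CLEC-2, was at 3.92, 5.02 and 5.17 FPKM without TGF-β and at 3.37, 3.49 and 3.14 FPKM with it. The groups did not overlap, but the negative-control library without TGF-β lay nearest to the treated ones. Pdpn fell by 0.39 ± 0.08 (limma adjusted p = 0.0169), with 85.9%, 69.5% and 60.8% of the level left. Without either miR-27 library the effect was -0.30 and no longer passed (limma adjusted p = 0.0611). It also missed when every row above 0 was tested (limma adjusted p = 0.0828).

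Nr2f2, the venous nuclear receptor, followed the same pattern at a similar level. It was at 4.33, 5.82 and 5.61 FPKM without and at 3.85, 4.06 and 4.03 FPKM with TGF-β. The treated libraries agreed closely and the untreated ones did not, with the negative control again lowest. Nr2f2 fell by 0.32 ± 0.07 (limma adjusted p = 0.0180). Without either miR-27 library the effect was -0.28 (limma adjusted p = 0.0815), and with every row above 0 tested the adjusted p was 0.0775. Clone rows AK045070 and BC070425 share the listed interval of Nr2f2 at no more than 0.317 FPKM, and the effect with them added was -0.30 (limma adjusted p = 0.0213). Of all tested genes, 31.6% had all 3 treated libraries below all 3 untreated ones, so the lack of overlap of Pdpn and Nr2f2 is not unusual in these data.

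Foxc2, the forkhead factor of lymphatic valves, went the other way. It was at 0.185, 0.123 and 0.129 FPKM without TGF-β and at 1.87, 1.71 and 2.01 FPKM with it, a rise of 10.1, 13.9 and 15.6 times. Foxc2 rose by 1.32 ± 0.05 on the log2(FPKM + 1) scale (limma adjusted p = 9.333e-05), a scale that shrinks changes of low genes. With a pseudocount of 0.1 the effect was 3.004. Its mean over the 6 libraries was 1.004 FPKM, so it passed the filter only through its treated libraries. From the length of its listed interval and the steps of the low values, Foxc2 rests on about 50, 30 and 30 fragments without and 445, 399 and 443 with TGF-β. The exact 95% Poisson intervals on those estimates, which cover counting error only, reach at most 65.9 fragments untreated and no lower than 361 treated.

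Foxc1, the paralogue of Foxc2, lay under the filter. It was at 0.0712, 0.125 and 0.143 FPKM without TGF-β and at 0.181, 0.167 and 0.190 FPKM with it, or about 28, 45 and 48 against 63, 57 and 61 fragments. All 3 treated libraries lay above all 3 untreated ones, as in 13.7% of the 10798 rows above 0 under the filter, against 26.8% of tested genes. The difference was 0.08 on the log2(FPKM + 1) scale, and 0.41 with a pseudocount of 0.1 (for the first, 2-sided exact permutation p = 0.10, n = 3 against 3). That is the smallest p this test allows. It permuted the libraries freely and did not use the pairing by inhibitor, so it adds nothing to the lack of overlap. When every row above 0 was fitted, Foxc1 did not pass (limma adjusted p = 0.121). The untreated negative-control library carried the lowest value, and its transfection the largest difference, 0.14 against 0.05 and 0.06 in the others. Without either library of that transfection the difference was 0.06.

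Prox1, the lymphatic commitment factor, was listed at 0 in all 3 libraries without TGF-β. With TGF-β the values were 0.00265 (negative control), 0 (miR-31) and 0.0125 FPKM (miR-27), about 2, 0 and 8 fragments over its longest annotated transcript. The overlapping clone row AK142161 was listed at 0 throughout. Zeros here are not proof of missing message: Eef1a1, whose elongation factor all cells need, was likewise listed at 0 in the 6 libraries. Fitted with every row above 0, Prox1 did not pass (limma adjusted p = 0.759), and no fold is given.

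The genes beside Foxc2 on chromosome 8 (123640071 to 123642794 in mm9, the build named in the submitters' processing notes) did not all follow it. Foxl1, a forkhead gene whose listed interval is 8790 bases from that of Foxc2, went from 0.0237 to 0.257, from 0.00374 to 0.328 and from 0.00785 to 0.261 FPKM in the 3 transfections. It lay under the filter and was not tested. Its treated libraries all lay above its untreated ones, as in 13.7% of the rows above 0 under the filter. Mthfsd, on the other side, was higher in each transfection, by 0.07, 0.13 and 0.25, but did not pass (0.15 ± 0.05, limma adjusted p = 0.0643). Foxf1a, the forkhead gene next beyond it, fell by 0.43 ± 0.05 (limma adjusted p = 0.00324), and in the negative-control pair of libraries it went from 9.22 to 6.15 FPKM. Near Foxc1 on chromosome 13 (31898515 to 31902504), Foxf2 and Foxq1 were listed at 0 and Gmds rose by 0.30 ± 0.04 (limma adjusted p = 0.00334). Both direct neighbours of Lyve1 on chromosome 7 (117994121 to 118006467) fell with it, Rnf141 by 0.60 and Mrvi1 by 0.72 (limma adjusted p = 0.000572 and 0.000314). The nearest coding genes of the other members, Smyd2 and Rps6kc1 around Prox1, Arrdc4 around Nr2f2 and Prdm2 around Pdpn, did not pass, and Mctp2 and Lrrc38 lay under the filter. Smyd2 was nonetheless lower with TGF-β in each transfection (effect -1.04 ± 0.34, limma adjusted p = 0.0555).

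**Figure D2:**
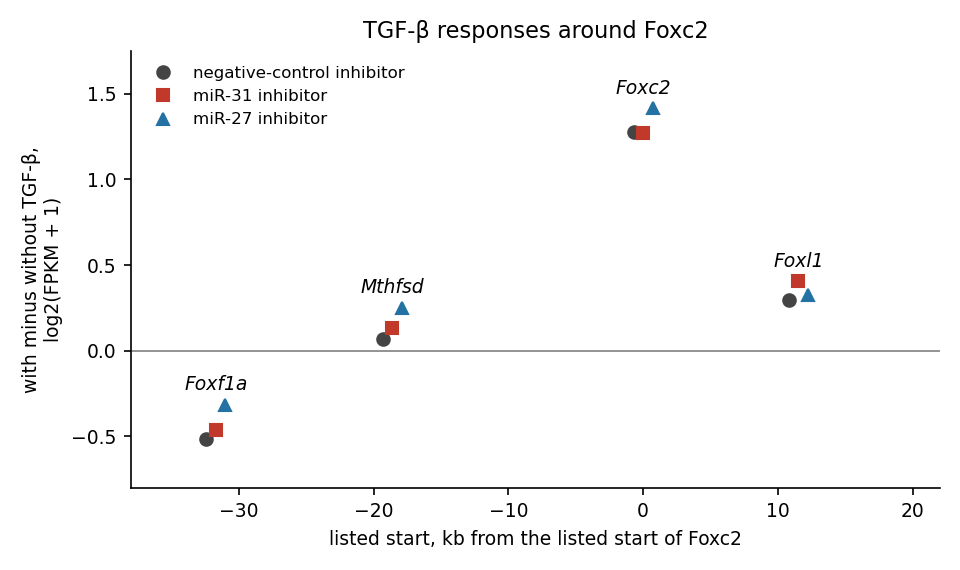
TGF-β response of Foxc2 and the named genes within 100 kb of it, as the difference in log2(FPKM + 1) between the libraries with and without TGF-β (y axis), against the distance between listed starts in kb (x axis). Each symbol is 1 transfection, set slightly apart sideways. Foxc2, Foxl1 and Mthfsd lie above 0 and Foxf1a below it in all 3 transfections.

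Among the other lymphatic genes, 23 were in the table and 10 were tested. Of these 3 rose and 6 fell, beside 22.7% higher and 27.5% lower over all tested genes, and the median effect was -0.35 beside -0.02. The difference of these counts from the background was not tested, here or for the lists that follow. Angpt2, a ligand of the receptor Tek with a role in lymphatic remodelling, fell by 3.41, and Klf2, a flow-responsive factor, by 0.74. Ccbe1, which promotes processing of VEGF-C, rose by 1.98, and in the negative-control libraries stood at 0.117 and then 3.16 FPKM. Like Foxc2, it passed the filter only through its treated libraries. Sox18, the activator of Prox1, rose by 1.83, from 1.60 to 9.08, 1.83 to 6.80 and 1.26 to 8.46 FPKM, while Prox1 stayed at or under 0.0125 FPKM. The 13 genes under the filter were at most 0.570 FPKM, among them the lymphatic products Reln (0.147 at most) and Mmrn1 (0.0184 at most), and Vegfc and Ccl21a were listed at 0. The receptor gene Flt4, by contrast, was at 11.98 to 12.6 FPKM without and 15.4 to 17.1 FPKM with TGF-β. It rose by 0.38 ± 0.05 (limma adjusted p = 0.00379), opposite in direction to Lyve1 and Pdpn.

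Of the venous genes other than Nr2f2, 7 were tested. Of these 4 rose and 1 fell, with a median of 0.73, again beside 22.7% higher and 27.5% lower over all tested genes. Vwf, a clotting factor of endothelial storage granules, rose by 3.93. It was at 0.372 to 0.426 FPKM untreated and passed the filter only through its treated libraries, at 17.1 to 23.0 FPKM. Rises were smaller for the sialomucin gene Emcn (0.80), the adhesion gene Selp (0.75) and Ephb4, the venous ephrin receptor (0.73). Nrp2, the co-receptor for VEGF-C that is in both the lymphatic and the venous list, fell by 0.36. Smarca4, whose chromatin remodeller acts on Nr2f2, did not pass, at 47.2 to 50.4 FPKM. Nr2f1, the closest relative of Nr2f2, stayed under the filter at 0.438 to 0.600 FPKM.

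Of 11 arterial genes tested, 4 were higher and 6 lower (median -0.45), beside the same 22.7% and 27.5%. The Notch ligand gene Dll4 fell by 1.81, to 0.621 to 0.815 FPKM, so that it passed the filter only through its untreated libraries, and the receptor gene Notch4 by 0.83, while the netrin receptor gene Unc5b rose by 2.97 and the VEGF co-receptor gene Nrp1 by 0.97. The ephrin gene Efnb2, the arterial partner of Ephb4, was also higher (0.19 ± 0.04, limma adjusted p = 0.0149). Among partners of Lyve1 and podoplanin, 2 of 10 rose and 3 fell, with a median of 0.00, beside 22.7% and 27.5% over all tested genes. Msn, whose product moesin links membrane proteins to actin, rose by 0.80, and Ezr, encoding the related ezrin, fell by 0.55. The hyaluronidase gene Hyal1 rose by 0.46 and Lgals8, whose galectin binds podoplanin, fell by 0.41. Clec1b, the podoplanin receptor of platelets, was listed at 0.

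**Figure D3:**
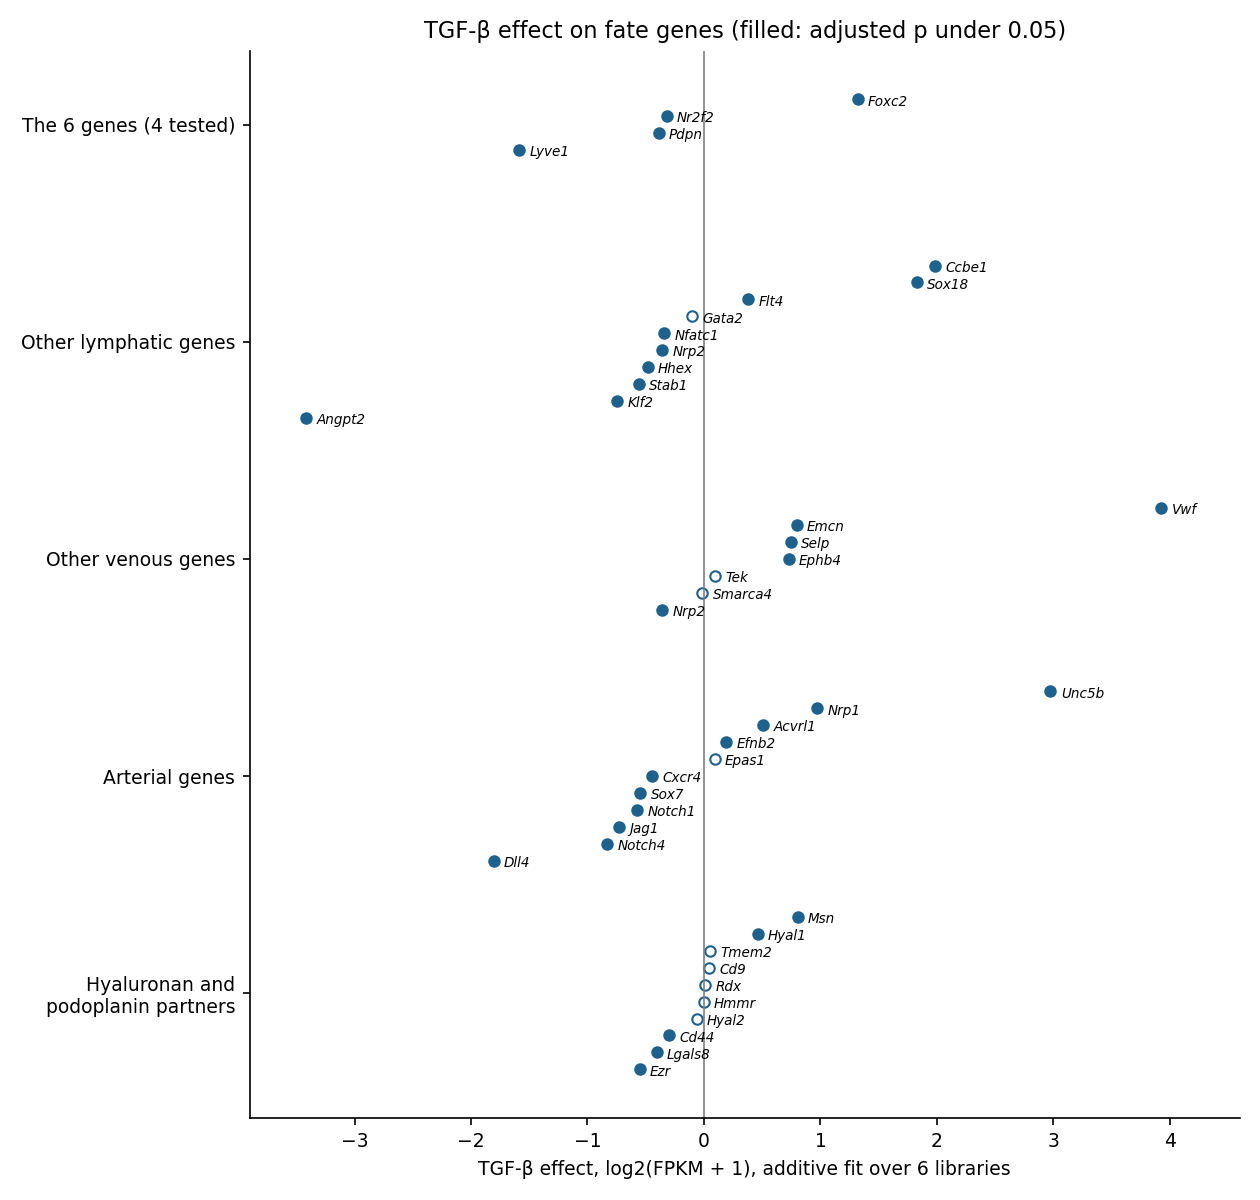
TGF-β effect in log2(FPKM + 1) from the additive fit (x axis) for every tested gene of the 5 groups (y axis). Each point is 1 gene, and filled points passed at an adjusted p under 0.05. Lyve1, at -1.58, and Foxc2, at 1.32, lie on opposite sides of 0, and Vwf, at 3.93, lies farthest to the right.

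Neither inhibitor moved any of the tested members past the threshold. Over all genes, limma called 0.0339% with the miR-31 inhibitor, 0.00846% with the miR-27 inhibitor and 0.0169% between the inhibitors, and the count of 0 among 4 members is close to that background. Those counts rest on single libraries: without the untreated miR-31 library, 1137 genes passed in place of 4 for that inhibitor and 208 in place of 2 between the inhibitors. For the miR-27 inhibitor, 12 passed in place of 1 without the treated negative-control library. At an unadjusted p under 0.05 those contrasts held 2135, 1470 and 403 genes, with Lyve1 in the first and the third.

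Foxc2, with 2 seed matches for miR-31, was not higher with the miR-31 inhibitor. Set against the negative control, it stood at 0.123 and 0.185 FPKM in untreated cells, and at 1.71 and 1.87 FPKM in treated ones. The effect over both states was -0.08 ± 0.06 (limma adjusted p = 0.481, 95% interval -0.23 to 0.07). The untreated values rest on about 30 and 50 fragments. Foxc1, with 1 match, stood at 0.125 and 0.0712 FPKM untreated, and at 0.167 and 0.181 FPKM treated. Its direction differed between the states, and neither state was tested alone. When every row above 0 was fitted, the effect on Foxc1 over both states was 0.03 ± 0.03 (limma adjusted p = 0.807). Prox1 gave no reading in either direction, since it was at or near 0 in every library.

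With the miR-31 inhibitor Lyve1, which holds no 7-base match, was at 111% of the negative control both without and with TGF-β. The effect was 0.15 ± 0.06 (limma adjusted p = 0.273, 95% interval 0.00 to 0.29). With the miR-27 inhibitor the effect on Lyve1 was -0.01 ± 0.06 (limma adjusted p = 0.959, 95% interval -0.15 to 0.13). The inhibitors differed from each other by 0.15 ± 0.06 for Lyve1 (limma adjusted p = 0.921).

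Nr2f2 and Pdpn shared a pattern across the inhibitors. Without TGF-β, Nr2f2 was at 134% of the negative control with the miR-31 inhibitor and at 130% with the miR-27 inhibitor, and Pdpn at 128% and 132%. With TGF-β the values were 105% and 105% for Nr2f2 and 104% and 93.3% for Pdpn. Both inhibitor libraries are set here against the same negative-control library, which was the lowest of the untreated ones for both genes. Over both states the miR-31 inhibitor effect was 0.21 ± 0.09 for Nr2f2 (limma adjusted p = 0.291, 95% interval -0.02 to 0.43) and 0.17 ± 0.10 for Pdpn (limma adjusted p = 0.411, 95% interval -0.10 to 0.43). For the miR-27 inhibitor, whose seed matches Nr2f2 once, the effects were 0.18 ± 0.09 (limma adjusted p = 0.452, 95% interval -0.04 to 0.41) and 0.12 ± 0.10 (limma adjusted p = 0.625, 95% interval -0.14 to 0.39). Whether the TGF-β response depends on the inhibitor could not be tested with 1 library per condition.

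**Figure D4:**
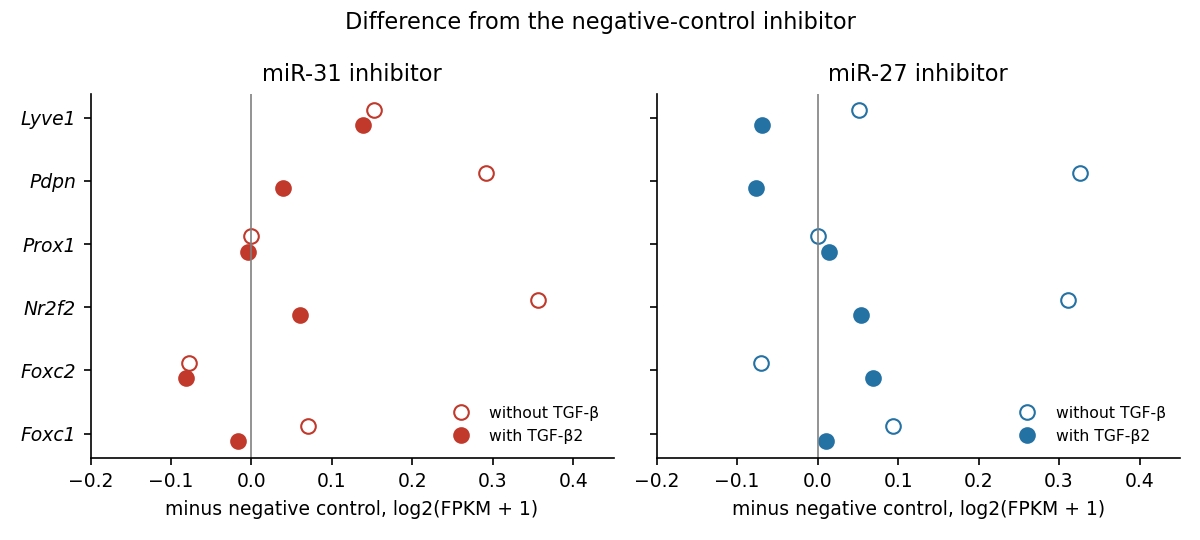
Difference from the negative-control inhibitor in log2(FPKM + 1) (x axis) for the 6 genes (y axis), for the miR-31 inhibitor (left) and the miR-27 inhibitor (right). Each point compares 2 libraries, open without and filled with TGF-β2. The open points of Nr2f2 (0.36 and 0.31) and Pdpn (0.29 and 0.33) lie farthest from 0.

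The genes most like each member over the 6 libraries were found by Pearson's r on log2(FPKM + 1), a description that mostly follows the TGF-β contrast. Lyve1 was nearest to Rab6, Rad18 and Zfp365, and Foxc2 to Psd3, Ganab and Ass1. With r over 0.99 there were 300 tested genes like Lyve1 and 326 like Foxc2, so those names are a few of many. For Nr2f2 there were 9, led by Sorbs2 (0.996), Pik3cb (0.994) and Parp4 (0.992), and for Pdpn 4, led by Fbxo45 (0.992), Kif2a (0.992) and Rsbn1 (0.9904). Like Nr2f2, Parp4 was lower in the untreated negative-control library than in the other untreated ones, at 3.27 against 4.17 and 4.15 FPKM. The r between Nr2f2 and Pdpn was 0.969.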

How the data were processed

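The authors deposited 1 table of FPKM, used as given. TopHat2 2.0.9, Cufflinks 2.1.1 and mm9 are named in the submitters' processing notes. Annotation and filters are not given in the sources used here. Directional libraries were made from ribosome-depleted RNA, per the labels' protocols. Rows whose mean over the libraries reached 1 FPKM were fitted with limma 3.58.1 in R 4.3.3, on log2(FPKM + 1), with inhibitor (3 levels) and TGF-β (2 levels), 2-sided, adjusted over 11816 genes at a threshold of 0.05. The fit left 2 residual degrees of freedom and a prior of 2.87, and its spread holds noise and any true interaction together. It was tested on simulated data with independent noise, few planted changes and no inhibitor effect. That setting held no interaction, so it cannot show how the fit behaves where noise and interaction are mixed. Foxc1, under the filter, was given an exact permutation test over the 6 libraries, without the pairing by inhibitor.

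Listed starts count from 0 (452 of 1494 intronless genes matched their annotated length on that reading, 21 on the other) and are printed from 1. Intervals of overlapping rows are merged in the table. Fragment numbers are estimates from FPKM, an annotated or listed length and the step of a single fragment, without a correction for fragment size. That step was read in each library as the commonest low value of FPKM times kilobases, among genes with a single annotated transcript.

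The members and gene lists were chosen with earlier results of these data known. Named are the members, the 4 tested genes of each list with the largest TGF-β effect, the 3 genes most like each member, and overlapping or nearest coding rows. Foxf1a, Foxf2 with Foxq1, and list genes beyond the first 4 were named after their values were seen.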

Additional observations from a re-analysis of the deposited data

How the results depend on the processing

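Alternatives were a pseudocount of 0.1, no filter, upper-quartile or median-of-ratios scaling, trend and robust options, no inhibitor term, summed rows and leaving out each library. Leaving out either library of a transfection removes that transfection from the TGF-β effect. Rows were summed for Nr2f2 only. Lyve1 and Foxc2 passed under the other 12. With no filter 2 members passed in place of 4, as Nr2f2 (-0.32) and Pdpn (-0.39) missed. Leaving out a library gave 2 to 4 members, with Nr2f2 between -0.41 and -0.26 and Pdpn between -0.50 and -0.30, and both missed without either miR-27 library. The count over the table then ran from 3566, without either negative-control library, to 6087, without either miR-31 library, against 5926 with all 6.

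No member passed for an inhibitor in any alternative. Leaving out libraries turned the sign of small effects. With the miR-27 inhibitor, Lyve1 ran from -0.066 to 0.047, Foxc2 from -0.071 to 0.069 and Pdpn from -0.039 to 0.29. Between the inhibitors, Nr2f2 ran from -0.058 to 0.11 and Pdpn from -0.10 to 0.18. Counts over the table without the untreated miR-31 library were 1137 in place of 4 for the miR-31 inhibitor and 208 in place of 2 between the inhibitors. For the miR-27 inhibitor 12 replaced 1 without the treated negative control. Foxc1 moved from 0.08 to 0.41 with a pseudocount of 0.1. With 6-base matches, 5 members in place of 2 held one for miR-31. Such a match occurred in 36.3% of the tested genes with an annotated 3′ UTR, against 13.3% for 7 bases. Causes were not tested.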

Other observations

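A gene of lymphatic growth and a gene of hyaluronan synthesis stayed under the filter but were higher in every library with TGF-β. Figf, which encodes VEGF-D, a ligand of the lymphatic receptor encoded by Flt4, went from 0.202 to 0.570 (negative control), 0.161 to 0.389 (miR-31) and 0.208 to 0.5001 FPKM (miR-27). Has2, a hyaluronan synthase gene, went from 0.0207 to 0.610, 0.0229 to 0.287 and 0.0187 to 0.395 FPKM. All treated libraries lay above all untreated ones for both, as in 13.7% of the rows above 0 under the filter. Neither was tested, and both were picked after their values were seen. The synthase genes Has1 and Has3, also under the filter, did not share the rise of Has2. Over the 6 libraries they were at 0.321 to 0.441 and 0.662 to 0.810 FPKM, and each differed in direction between transfections.

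Smyd2, the nearest named coding gene before Prox1, was at 120 FPKM in the untreated miR-27 library against 38.7 and 37.8 FPKM in the other untreated ones. With TGF-β it was at 26.9 (negative control), 26.1 (miR-31) and 27.5 FPKM (miR-27).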
